A study of Mus musculus with 12 samples.

Results

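Mitochondria carry a small genome of their own, but almost every protein that copies, transcribes, processes and translates it is encoded in the nucleus. This set held 37 such nuclear genes, chosen as factors for mitochondrial transcription, RNA processing, DNA replication and translation, of 54146 genes in the files, and each of the 37 matched 1 symbol. Their RNA was measured in mouse embryonic stem cells (mESCs), which are derived from the inner cell mass of the blastocyst and keep dividing in culture with the cytokine LIF. The cells were C57BL/6, carried floxed alleles of *Prdm10* together with a *Rosa26*-CreERT2 transgene (genotype Prdm10F/F; Rosa26-CreERT2) in every group, and were exposed for 24 h to 50 nM 4-hydroxytamoxifen (OHT), which activates the Cre recombinase and is used to delete exon 5 of *Prdm10*, or to ethanol (EtOH) as the vehicle. RNA was taken at Day 2 or Day 4 after induction, which gave 4 groups of 3 libraries (12 in all). No group carried Cre without floxed alleles, so OHT, Cre activity and the deletion cannot be told apart. PRDM10 is a zinc finger transcription factor, and the question asked here is what happened to this gene set after the exposure meant to remove it.

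Total expected counts per library lay between 35017667 and 41409992. The 10 mESC markers (*Pou5f1*, *Sox2*, *Nanog* and others) summed to 2484 to 2969 TPM in the 12 libraries, and the 12 markers of endoderm, mesoderm, neural cells, trophectoderm and fibroblasts to 2.22 to 3.39 TPM. TPM is an abundance scaled for transcript length and library size. The gene-level count of *Prdm10* itself was higher in OHT. It was 801 ± 29.4 (SD, n = 3) in EtOH and 2173 ± 80.3 in OHT at Day 2, and 869 ± 45.8 and 2012 ± 67.5 at Day 4. On the log2 scale the rise was 1.44 and 1.21 (DESeq2 adjusted p = 1.37e-105 and 4.32e-83). A gene-level count includes reads from all other exons and cannot show the loss of exon 5, so the groups are called the libraries labelled OHT and EtOH.

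Mitochondrial DNA is transcribed by the single-subunit polymerase POLRMT with TFAM and TFB2M into long transcripts that span nearly the whole genome. These are cut at tRNAs by the RNase P and RNase Z enzymes, given poly(A) tails, and held by the LRPPRC and SLIRP complex, which stabilizes mRNAs in the matrix. Pentatricopeptide repeat (PTCD) and FASTK family proteins bind and process particular transcripts. DNA polymerase gamma, the helicase Twinkle and the single-stranded DNA binding protein SSBP1 copy the genome, and a bacterial-type set of factors (TUFM, TSFM, GFM1, MTIF2, MTIF3) drives translation on the mitochondrial ribosome. NRF1 and GABPA are nuclear transcription factors known for activating many of these genes.

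Of the 37 genes, 5 were on the list of 633 genes that the study associated with PRDM10 binding sites by chromatin immunoprecipitation in mESCs, an assay on chromatin and not on these RNA libraries: *Ptcd2*, *Mterf3*, *Lrpprc*, *Polg* and *Ptcd3*. All of these but *Ptcd3* carried the largest differences in the set. Promoters are shown for those of the 5 with a RefSeq entry, which *Mterf3* lacked. The sequence searched was TGGTNNNNNCC, letters of the probe that the study used for its gel shift assays with PRDM10 protein, on both strands (GGNNNNNACCA on the other). Matching letters are in capitals in the WT probe and absent from the mutated (MUT) probe, which holds no match.
WT: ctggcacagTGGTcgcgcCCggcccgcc
MUT: ctggcacagcaaccgcatttggcccgcc
The next sequences are the 250 bases before the RefSeq transcript start (GRCm38.p6), 5′ to 3′ on the strand of the gene, with the fixed letters of each match in capitals. They cover chr17:84790787-84791036 for *Lrpprc*, chr13:99344679-99344928 for *Ptcd2*, chr7:79466274-79466523 for *Polg* and chr6:71908763-71909012 for *Ptcd3*, each on the minus strand.
Lrpprc: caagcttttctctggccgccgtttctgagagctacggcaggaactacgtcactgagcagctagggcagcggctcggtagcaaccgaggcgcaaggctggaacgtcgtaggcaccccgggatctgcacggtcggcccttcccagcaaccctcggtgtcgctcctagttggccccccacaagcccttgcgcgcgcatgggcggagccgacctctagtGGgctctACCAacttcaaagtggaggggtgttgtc
Ptcd2: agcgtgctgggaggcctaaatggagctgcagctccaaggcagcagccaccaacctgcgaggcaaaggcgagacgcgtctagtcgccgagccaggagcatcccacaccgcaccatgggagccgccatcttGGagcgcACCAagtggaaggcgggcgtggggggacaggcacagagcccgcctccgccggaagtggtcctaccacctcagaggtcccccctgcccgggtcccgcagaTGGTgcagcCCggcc
Polg: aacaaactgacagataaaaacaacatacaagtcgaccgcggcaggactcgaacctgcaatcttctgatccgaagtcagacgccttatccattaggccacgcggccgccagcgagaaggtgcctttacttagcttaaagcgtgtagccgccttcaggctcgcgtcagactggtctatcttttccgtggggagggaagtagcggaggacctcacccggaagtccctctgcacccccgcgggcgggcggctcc
Ptcd3: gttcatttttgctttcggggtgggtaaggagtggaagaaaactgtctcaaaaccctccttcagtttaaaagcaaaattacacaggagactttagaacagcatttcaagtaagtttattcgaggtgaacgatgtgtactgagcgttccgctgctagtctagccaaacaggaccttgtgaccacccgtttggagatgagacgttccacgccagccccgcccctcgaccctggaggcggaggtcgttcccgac
The *Lrpprc* promoter held 1 match, on the opposite strand, beginning 35 bases before the start (chr17:84790811-84790821). The *Ptcd2* promoter held 2: one on the gene's own strand 15 bases before the start (chr13:99344683-99344693) and one on the opposite strand 121 bases before it (chr13:99344789-99344799). In the GENCODE vM21 annotation *Ptcd2* reaches to position 99344705, so the match nearer the start lies inside the annotated gene there. No match was in the windows of *Polg* and *Ptcd3*, which says only that these letters are not in these windows. A match was held by 11.5% of all 32851 promoters that RefSeq gave. Counted by gene, the share was 13.1% of 27025 genes and 39.0% of the 423 genes of the bound list with an entry. Of the 37 genes 33 had an entry (not *Mterf3*, *Mtpap*, *Rnaseh1* and *Mtif3*), and 8 of these held a match: besides *Lrpprc* and *Ptcd2*, they were *Mterf4*, *Fastkd1*, *Elac2*, *Twnk*, *Mtif2* and *Nrf1*. The letters searched were chosen with earlier results of these data known, and a match is a description of the sequence, not a binding site.

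All 37 genes were expressed in these cells, with a mean normalised count above 100 in each comparison. In the 6 libraries labelled EtOH their mean levels ran from 6.88 TPM for *Polg2*, the accessory subunit of DNA polymerase gamma, to 141 TPM for *Slirp*, with a median of 28.0. The next highest were *Ptcd3* at 114 TPM, *Ssbp1* at 86.6, *Tufm* at 81.6 and *Tfam*, which packages mitochondrial DNA, at 66.1. *Slirp* (125 to 163 TPM) and *Ptcd3* (98.3 to 131 TPM) overlapped over these libraries, as did *Polg2* (6.07 to 7.57 TPM) and the second lowest gene, *Ptcd1* (5.40 to 8.64 TPM, mean 6.96). These ranges pool the 2 days, and within a day neither pair overlapped. *Slirp* was above *Ptcd3* in every EtOH library of each day. *Ptcd1* was below *Polg2* at Day 2 (means 5.71 and 7.26 TPM) and above it at Day 4 (8.22 and 6.49 TPM). *Lrpprc* stood at 52.1 TPM, the polymerase gene *Polrmt* at 16.9, *Polg* at 21.8 and *Nrf1* at 40.0.

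**Figure D1:**
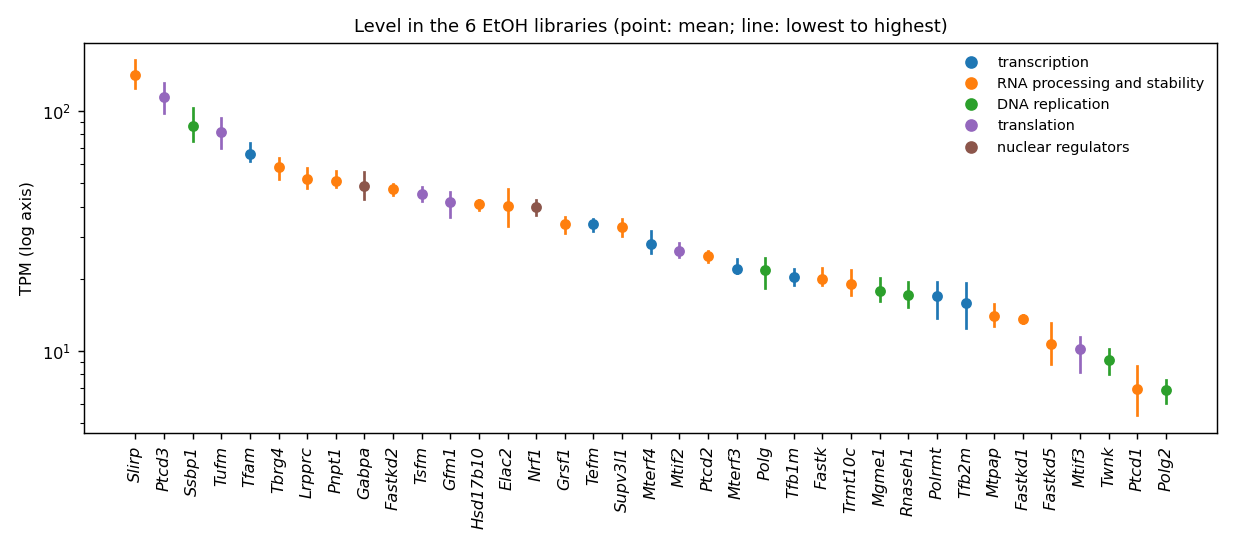
Level of each of the 37 genes in the 6 libraries labelled EtOH, in TPM on a log axis, in falling order and coloured by role. Points are means and lines run from the lowest to the highest library, from 141 TPM (*Slirp*) down to 6.88 TPM (*Polg2*).

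The first comparison asked which of these genes differed between OHT and EtOH 2 days after induction. Of the 37 genes, 6 were lower and 0 higher (DESeq2 Wald test, adjusted p below 0.05 over all genes and mean normalised count above 100), where 10.6% of all 11644 genes tested were lower and 9.17% higher. The 6 were *Ptcd2*, *Mterf3*, *Lrpprc*, *Polg*, *Tsfm* and *Trmt10c*, of which the first 4 are on the bound list. The median over the 37 genes was -0.09 on the log2 scale, against -0.03 over all genes above that mean. At Day 4, 17 of the 37 were lower and 5 higher, where 21.7% of 11555 genes tested were lower and 23.5% higher, with a median of -0.13 against 0.01. Between the days, 5 genes were lower on both (*Ptcd2*, *Mterf3*, *Lrpprc*, *Polg* and *Tsfm*). Only *Trmt10c* was lower at Day 2 and did not pass at Day 4. At Day 4 but not at Day 2, 12 genes passed as lower and 5 as higher. The other 14 passed on neither. The shares of all genes with these patterns were not counted. Passing on 1 day only does not show a difference between the days, which was tested separately. Of the 12 lower only at Day 4, that test called *Polrmt* and *Ptcd1* alone, and *Tefm* gave -0.16 on both days. Of the 5 higher only at Day 4, it called all but *Supv3l1*. In bulk RNA, fewer cells that express a gene and less RNA per cell cannot be told apart. The labels number the libraries of a group but do not say that they came from separate cultures, so the tests measure the spread between these libraries.

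**Figure D2:**
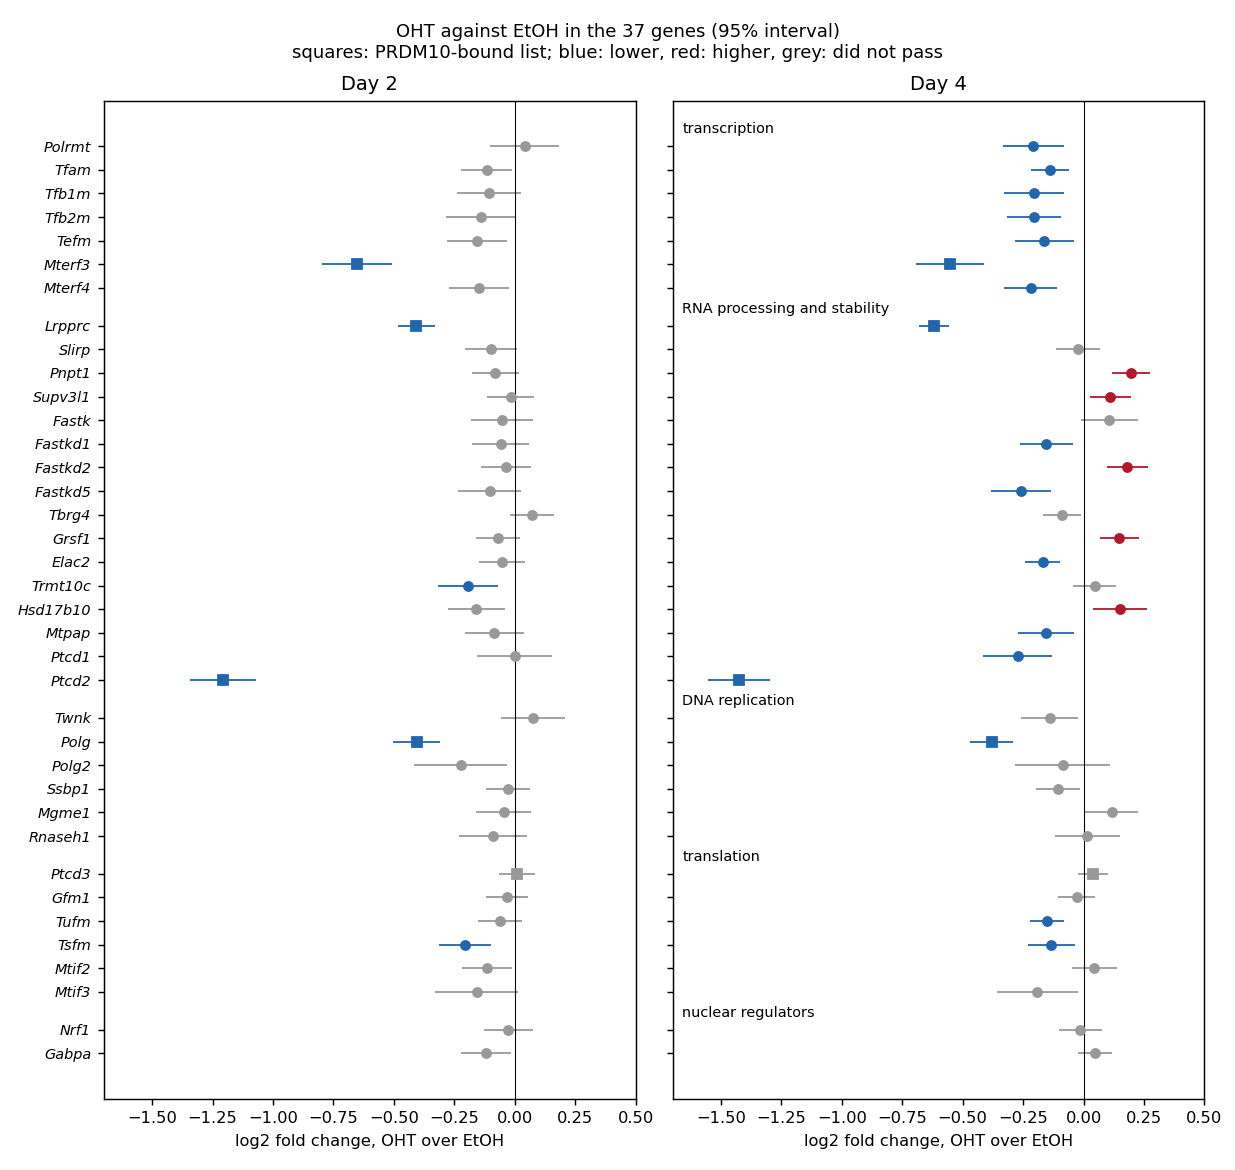
Log2 fold change of OHT over EtOH for each of the 37 genes at Day 2 (left) and Day 4 (right), grouped by role, with 95% intervals. Squares mark the bound list, and blue, red and grey mark lower, higher and neither. The squares of *Ptcd2*, *Mterf3*, *Lrpprc* and *Polg* lie to the left on both days and that of *Ptcd3* stays at 0, while genes off the list lie between -0.27 and 0.20 at Day 4.

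The gene with the largest difference was *Ptcd2* (ENSMUSG00000021650.7, GRCm38 chr13:99319647-99344705), which encodes a pentatricopeptide repeat protein of the mitochondrion that acts in the maturation of the cytochrome b mRNA. Its normalised counts at Day 2 were 1933, 1737 and 1741 in the libraries labelled EtOH and 754, 811 and 776 in those labelled OHT. At Day 4 they were 1749, 1663 and 1699 in EtOH and 644, 654 and 610 in OHT. The groups did not overlap on either day, and *Ptcd2* RNA stood at 43.3% of the EtOH mean at Day 2 and 37.3% at Day 4. The log2 fold changes were -1.21 (SE 0.07, DESeq2 adjusted p = 2.54e-64) and -1.42 (SE 0.07, adjusted p = 2.58e-103).

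*Mterf3* (ENSMUSG00000021519.11, chr13:66906968-66933088) encodes a member of the mitochondrial termination factor family known as a negative regulator of mitochondrial transcription and a factor for ribosome assembly. At Day 2 its normalised counts were 1158, 1111 and 1090 in EtOH and 703, 747 and 685 in OHT. At Day 4 they were 1103, 1012 and 1049 against 720, 740 and 700.3. Every OHT library was below every EtOH library, at 63.6% and 68.3% of the EtOH mean. The log2 fold changes were -0.65 (SE 0.07, DESeq2 adjusted p = 2.36e-16) and -0.55 (SE 0.07, adjusted p = 2.66e-13).

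*Lrpprc* (ENSMUSG00000024120.12, chr17:84705247-84790789) encodes the protein that holds and stabilizes mitochondrial mRNAs together with SLIRP. At Day 2 its normalised counts were 9542, 9502 and 9240 in EtOH and 7124, 7192 and 6984 in OHT. At Day 4 they were 9826, 10158 and 9851 in EtOH and 6519, 6467 and 6473 in OHT. The OHT libraries were lower throughout, at 75.3% and 65.2% of the EtOH mean. By DESeq2, *Lrpprc* RNA gave log2 fold changes of -0.41 at Day 2 (SE 0.04, adjusted p = 1.64e-23) and -0.62 at Day 4 (SE 0.03, adjusted p = 1.36e-80). The fall was larger at Day 4, with a difference of -0.21 on the log2 scale (SE 0.04, DESeq2 interaction of treatment and day, adjusted p = 3.57e-06). Its partner *Slirp* did not pass on either day, with log2 fold changes of -0.10 (SE 0.05) and -0.02 (SE 0.05).

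*Polg* (ENSMUSG00000039176.17, chr7:79446231-79466362) encodes the catalytic subunit of DNA polymerase gamma. Its normalised counts were 3242, 3287 and 3136 in EtOH and 2388, 2419 and 2488 in OHT at Day 2. They were 3402, 3328 and 3599 against 2718, 2608 and 2622 at Day 4. The groups did not overlap, and OHT stood at 75.5% and 76.9% of EtOH. The log2 fold changes were -0.41 (SE 0.05, DESeq2 adjusted p = 4.29e-14) and -0.38 (SE 0.05, adjusted p = 2.64e-15), and they differed between the days by 0.03 (95% interval -0.09 to 0.14). For *Mterf3* the difference between the days was 0.10 (95% interval -0.07 to 0.28), and for *Ptcd2* it was -0.21 (95% interval -0.38 to -0.04, adjusted p = 0.0596).

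The fifth gene of the bound list behaved otherwise. *Ptcd3* (ENSMUSG00000063884.6, chr6:71880638-71908750) encodes a pentatricopeptide repeat protein of the small mitochondrial ribosomal subunit. At Day 2 its normalised counts were 8804, 8526 and 8585 in EtOH and 8771, 8713 and 8600.3 in OHT. At Day 4 they were 11084, 10635 and 10484 against 11132, 11052 and 10962. The groups overlapped on both days. The log2 fold change was 0.01 (95% interval -0.06 to 0.08) at Day 2 and 0.04 (95% interval -0.02 to 0.10) at Day 4.

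The binding site that the study assigned to *Ptcd3* was also assigned to *Polr1a*, which encodes the largest subunit of RNA polymerase I, the polymerase of nuclear rRNA genes. *Polr1a* runs the other way on chromosome 6, from position 71909053. Its normalised counts were 6867, 7237 and 6900.2 in EtOH and 4281, 4298 and 4570.3 in OHT at Day 2, and 8182, 8617 and 8244 against 3429, 3529 and 3462 at Day 4. *Polr1a* fell and *Ptcd3* did not pass, and the log2 fold changes of *Polr1a* were -0.68 (SE 0.05, DESeq2 adjusted p = 4.31e-46) and -1.27 (SE 0.04, adjusted p = 4.08e-252). Its 250 bases before the start held no match to the motif either. The site of *Ptcd2* was shared with *Mrps27*, a gene of the small mitochondrial ribosomal subunit that starts at position 99344786 of chromosome 13 on the other strand and whose promoter window holds the same match at chr13:99344683-99344693. *Mrps27* was higher at Day 2 by 0.18 (SE 0.05, adjusted p = 0.0129) and gave 0.06 (SE 0.05, adjusted p = 0.356) at Day 4, with the Day 2 call lost in 5 of 15 alternative analyses. For *Ptdss1*, a phosphatidylserine synthase gene that shares the site of *Mterf3*, the values were -0.06 (SE 0.06, adjusted p = 0.555) and -0.15 (SE 0.05, adjusted p = 0.0186), with the Day 4 call lost in 7 of 15.

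**Figure D3:**
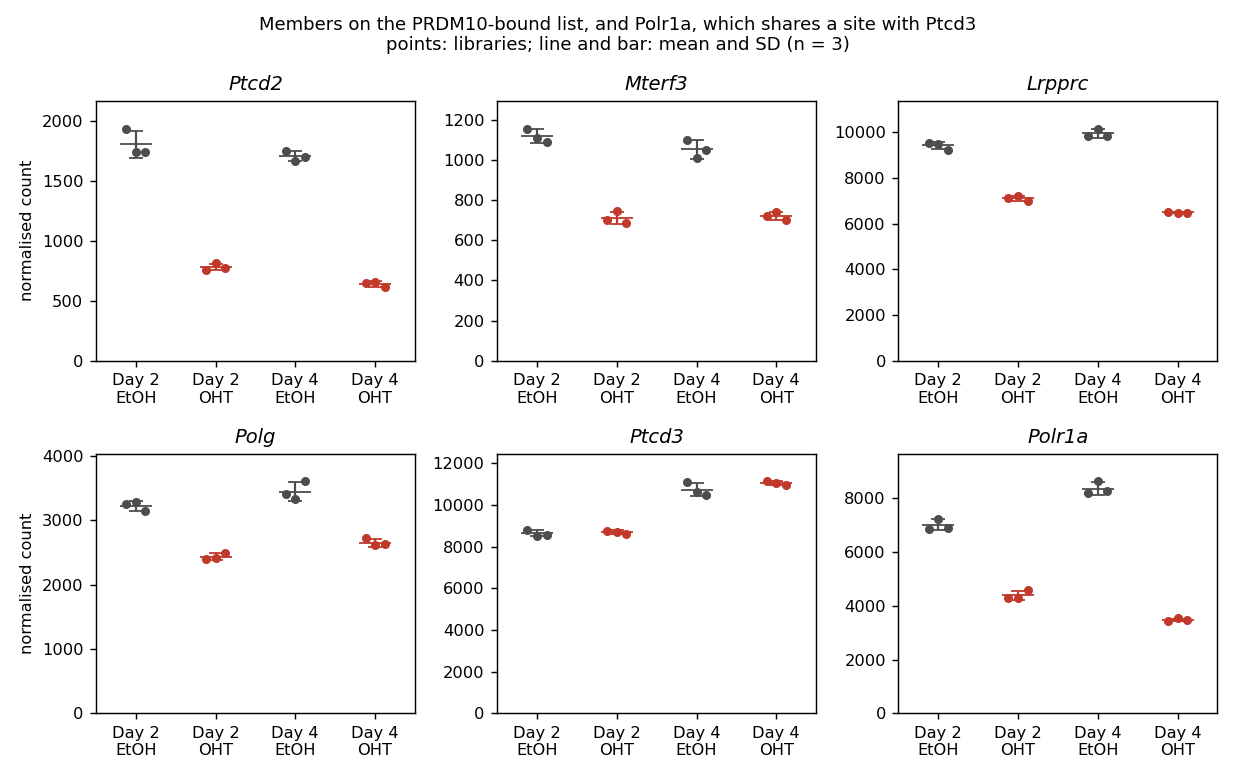
Normalised counts of the 5 genes on the bound list, and of *Polr1a*, in each library of the 4 groups (points), with mean and SD (n = 3). The OHT libraries (red) lie below the EtOH libraries (grey) for *Ptcd2*, *Mterf3*, *Lrpprc*, *Polg* and *Polr1a* on both days, and overlap them for *Ptcd3*.

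Among the 32 genes off the bound list the differences were small. At Day 2 the log2 fold changes ran from -0.22 (*Polg2*, which did not pass) to 0.08 (*Twnk*, which did not pass). There 2 were lower (6.25%) and 0 higher, against 10.6% and 9.17% over all genes tested. At Day 4 the range was -0.27 (*Ptcd1*) to 0.20 (*Pnpt1*). There 13 were lower (40.6%) and 5 higher (15.6%), against 21.7% and 23.5% over all genes tested. The 2 lower at Day 2 were *Tsfm*, the nucleotide exchange factor of TUFM, at -0.21 (SE 0.05, DESeq2 adjusted p = 0.00256), and *Trmt10c*, a subunit of mitochondrial RNase P, at -0.19 (SE 0.06, adjusted p = 0.0194). *Trmt10c* lost its call in 7 of 15 alternative analyses. *Tsfm* lost its Day 2 call only where a trend with gene length was removed from each library, at -0.13 (adjusted p = 0.0888).

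All 7 genes grouped under transcription were lower at Day 4, where 21.7% of all genes tested were lower. The group is not the machinery alone. It includes *Mterf3*, a negative regulator, for example, and *Tfb1m* and *Mterf4* are not counted here as core machinery either. Of the 7, *Mterf3* was the only one called lower at Day 2, where 10.6% of all genes tested were. Yet 6 of the 7 were already below 0 at Day 2, with a median of -0.14 over the 7. A difference between the days was called for 1 of them. Their median at Day 4 was -0.20. Without *Mterf3* the other 6 lay between -0.14 and -0.22. *Polrmt*, the polymerase itself, had 1190 ± 48.2 normalised counts (SD, n = 3) in EtOH and 1223 ± 91.4 in OHT at Day 2, and 1259 ± 42.7 and 1091 ± 44.8 at Day 4. Its log2 fold change went from 0.04 (SE 0.07) to -0.21 (SE 0.06, DESeq2 adjusted p = 0.00485), a difference between the days of -0.25 (SE 0.09, adjusted p = 0.0309) that was not called in 8 of 20 alternative analyses. *Tfam* had 4781 ± 202 and 4411 ± 283 at Day 2, and 4490 ± 183 and 4083 ± 37.9 at Day 4. Its Day 4 difference was -0.14 (SE 0.04, adjusted p = 0.00302), and its Day 2 value of -0.12 (SE 0.05) did not pass (adjusted p = 0.135). *Tfb1m*, *Tfb2m*, the elongation factor *Tefm* and the termination factor family gene *Mterf4* were lower at Day 4. Their log2 fold changes were -0.20, -0.20, -0.16 and -0.22. Over 15 alternative analyses all 7 stayed below 0, with 4 to 7 of them called, and *Tefm* lost its call in 8 of the 15.

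At Day 2, 3 of the 16 genes of RNA processing and stability were lower (18.75%) and 0 higher. The shares over all genes tested were 10.6% and 9.17%. At Day 4 the 16 went in both directions, with 7 lower (43.75%) and 5 higher (31.25%), against 21.7% and 23.5% over all genes. The higher 5 were *Pnpt1*, *Supv3l1*, *Fastkd2*, *Grsf1* and *Hsd17b10*. *Pnpt1* and *Supv3l1* encode the polynucleotide phosphorylase and the helicase that together degrade mitochondrial RNA, *Grsf1* a G-rich RNA-binding protein of the mitochondrial RNA granules that works with them, and *Fastkd2* another granule protein. *Hsd17b10* encodes a dehydrogenase that is also a subunit of mitochondrial RNase P.

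For *Pnpt1*, normalised counts at Day 2 were 6067, 6022 and 5827 in EtOH and 5813, 5853 and 5254 in OHT. At Day 4 they were 6198, 5934 and 5747 in EtOH and 7019, 6934 and 6560 in OHT. The groups overlapped at Day 2 and every OHT library was above every EtOH library at Day 4. The log2 fold change went from -0.08 (SE 0.05) to 0.20 (SE 0.04, DESeq2 adjusted p = 8.2e-06), and the difference between the days was 0.28 (SE 0.06, adjusted p = 0.000157).

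*Fastkd2* had 4347, 4284 and 4064 normalised counts in EtOH and 4284, 4243 and 3850.3 in OHT at Day 2. At Day 4 it had 4530, 4223 and 4016 against 4846, 4838 and 4820. An overlap at Day 2 was followed by none at Day 4. Its log2 fold change went from -0.04 (SE 0.05) to 0.18 (SE 0.04, DESeq2 adjusted p = 0.000232), a difference of 0.22 (SE 0.07, adjusted p = 0.0101).

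*Grsf1* had 3881, 3794 and 3688 normalised counts in EtOH and 3630, 3665 and 3531 in OHT at Day 2, and 3012, 3039 and 3039 against 3391, 3325 and 3373 at Day 4. The groups did not overlap on either day, in opposite directions. In DESeq2 the log2 fold change of *Grsf1* was -0.07 at Day 2 (SE 0.05, adjusted p = 0.354) and 0.15 at Day 4 (SE 0.04, adjusted p = 0.00149), with a difference between the days of 0.22 (SE 0.05, adjusted p = 0.000128). In EtOH *Grsf1* had itself fallen by 0.33 between the days (SE 0.04, adjusted p = 4.35e-12). That comparison shares the Day 4 EtOH libraries with the Day 4 difference, so the 2 are not independent.

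*Hsd17b10*, on the X chromosome, had 1655, 1559 and 1605 normalised counts in EtOH and 1420, 1418 and 1478 in OHT at Day 2, and 1443, 1376 and 1387 against 1602, 1532 and 1540.03 at Day 4. It was also without overlap and in opposite directions, at -0.16 (SE 0.06, DESeq2 adjusted p = 0.0512) and 0.15 (SE 0.06, adjusted p = 0.0266), and had the largest positive difference between the days among the 37, 0.31 (SE 0.07, adjusted p = 9.54e-05). Its Day 4 call was lost in 7 of 15 alternative analyses and that of *Supv3l1* (0.11, SE 0.04, adjusted p = 0.0368) in 9 of 15. *Pnpt1*, *Fastkd2* and *Grsf1* were called at Day 4 in all 15.

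Besides *Ptcd2* and *Lrpprc*, the 5 lower genes of RNA processing at Day 4 were *Ptcd1* (-0.27), *Fastkd5* (-0.26), *Elac2* (-0.17), which encodes mitochondrial RNase Z, *Mtpap* (-0.15), the mitochondrial poly(A) polymerase, and *Fastkd1* (-0.15). The FASTK family thus had *Fastkd1* and *Fastkd5* lower and *Fastkd2* higher, while *Fastk* gave 0.11 (adjusted p = 0.172) and *Tbrg4* gave -0.09 (adjusted p = 0.0791). The PTCD family was likewise uneven, with *Ptcd2* lower on both days, *Ptcd1* lower at Day 4 and *Ptcd3* passing on neither.

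Among the 6 genes of DNA replication, *Polg* was the only one that passed on either day. The other 5 (*Twnk*, *Polg2*, *Ssbp1*, *Mgme1* and *Rnaseh1*) lay between -0.22 and 0.08 at Day 2 and between -0.14 and 0.12 at Day 4. *Polg2*, whose product forms the polymerase with that of *Polg*, gave -0.22 (SE 0.10, adjusted p = 0.101) and -0.09 (SE 0.10, adjusted p = 0.565). Of the 6 genes of translation, *Tsfm* was lower on both days, with -0.13 at Day 4 (SE 0.05, DESeq2 adjusted p = 0.0238). That Day 4 call was lost without any 1 of the 6 libraries. *Tufm*, the elongation factor that delivers aminoacyl-tRNA to the ribosome, had 5134 ± 79.4 and 4919 ± 211 normalised counts (SD, n = 3) in EtOH and OHT at Day 2, and 5826 ± 168 and 5251 ± 45.3 at Day 4. It was lower at Day 4, at -0.15 (SE 0.04, adjusted p = 0.000191), in all 15 alternative analyses too. The initiation factors *Mtif2* and *Mtif3*, the elongation factor *Gfm1* and *Ptcd3* passed on neither day. Neither did the nuclear regulators. *Nrf1* had 2934 ± 28.2 and 2880 ± 129 normalised counts at Day 2 and 2672 ± 53.2 and 2652 ± 50.2 at Day 4, with log2 fold changes of -0.03 (95% interval -0.13 to 0.07) and -0.01 (95% interval -0.10 to 0.07). *Gabpa* gave -0.12 (95% interval -0.22 to -0.02, adjusted p = 0.102) and 0.05 (95% interval -0.02 to 0.12).

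The difference between OHT and EtOH itself differed between the days for 12 of the 37 genes, where 32.3% of 11616 genes tested did so. It was more positive at Day 4 for 7 of them and more negative for 5. This split followed the scaling, with 5 and 8 when libraries were scaled by their total counts and 6 and 8 when a length trend was removed. For 10 of the 12 the fold changes had opposite signs on the days, *Lrpprc* and *Ptcd1* being the others. None of the 10 passed on both days, so a change of sign was not itself shown. *Trmt10c* went from 2325 ± 28.8 normalised counts in EtOH and 2033 ± 172 in OHT at Day 2 to 2584 ± 67.4 and 2673 ± 62.9 at Day 4, or from -0.19 to 0.05 on the log2 scale. *Tbrg4* went from 0.07 (3721 ± 133 and 3909 ± 43.0) to -0.09 (4019 ± 86.6 and 3785 ± 106). *Twnk*, the replicative helicase, went from 0.08 (1322 ± 29.6 and 1393 ± 95.4) to -0.14 (1439 ± 44.3 and 1307 ± 66.2). *Mtif2* went from -0.12 (2715 ± 6.43 and 2502 ± 109) to 0.04 (2575 ± 108 and 2658 ± 47.8), and *Gabpa* from -0.12 (7745 ± 321 and 7120 ± 465) to 0.05 (8068 ± 312 and 8352 ± 47.6). These single-day values, apart from that of *Trmt10c* at Day 2, did not pass on their own. *Lrpprc*, *Pnpt1*, *Fastkd2*, *Grsf1*, *Trmt10c* and *Hsd17b10* were called in all 20 alternative analyses of this difference.

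**Figure D4:**
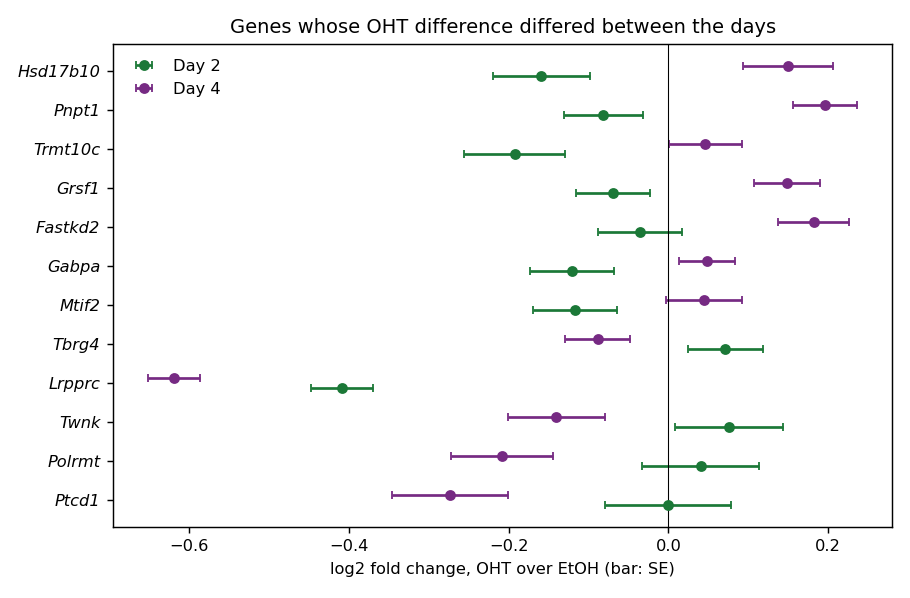
Log2 fold change of OHT over EtOH with its SE at Day 2 (green) and Day 4 (purple) for the 12 genes whose difference differed between the days. The points of *Hsd17b10*, *Pnpt1*, *Trmt10c*, *Grsf1* and *Fastkd2* move from below 0 to above 0, though none of these genes passed on both days. *Lrpprc* moves further down, from -0.41 to -0.62.

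The libraries labelled EtOH gave the change over time without OHT. Between Day 2 and Day 4, 9 of the 37 genes were higher and 6 lower, where 20.6% of 11572 genes tested were higher and 20.5% lower. *Ptcd3* rose by 0.31 (SE 0.04, DESeq2 adjusted p = 2.45e-16) and *Tufm* by 0.18 (SE 0.04, adjusted p = 5.3e-05), and *Nrf1* fell by 0.14 (SE 0.05, adjusted p = 0.0117, lost in 4 of 13 alternative analyses). The outermost values, chosen after they were seen, were those of *Tfb2m* (0.44, SE 0.06, adjusted p = 2.07e-11) and *Grsf1* (-0.33). *Ptcd2*, *Mterf3*, *Lrpprc* and *Polg* did not pass, at -0.09, -0.09, 0.07 and 0.09. The differences between OHT and EtOH at Day 4 were -0.20 for *Tfb2m* and 0.15 for *Grsf1*. Both comparisons use the Day 4 EtOH libraries with opposite sign, so opposite directions are partly built in for genes chosen this way.

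The RNAs that these proteins act on were in the same libraries. The 13 mRNAs of the mitochondrial genome had a median log2 fold change of -0.04 at Day 2 and -0.59 at Day 4. At Day 2, 3 were lower and 2 higher, and at Day 4, 11 were lower and 0 higher (9 to 11 lower in 15 alternative analyses). *mt-Co1*, the most abundant, which encodes a core subunit of cytochrome c oxidase, had 337578 ± 9107 and 261302 ± 3620 normalised counts (SD, n = 3) in EtOH and OHT at Day 2, and 311356 ± 3232 and 170239 ± 1557 at Day 4. Its log2 fold changes were -0.37 (SE 0.03, DESeq2 adjusted p = 8.41e-25) and -0.87 (SE 0.02, adjusted p = 1.75e-299). *mt-Nd1*, of complex I, gave -0.04 (SE 0.05, adjusted p = 0.681) and then -0.67 (SE 0.03, adjusted p = 1.04e-84). *mt-Cytb*, the cytochrome b mRNA, was higher at Day 2 by 0.15 (SE 0.05, adjusted p = 0.0182, lost in 4 of 15 alternative analyses) and lower at Day 4 at -0.61 (SE 0.04, adjusted p = 2.44e-48). *mt-Nd6*, the only mRNA encoded on the other strand of the mitochondrial genome, was lower at Day 2 at -0.40 (SE 0.08, adjusted p = 5.28e-05) and gave 0.07 (SE 0.07, adjusted p = 0.505) at Day 4. *mt-Co2* (0.60, SE 0.38, adjusted p = 0.235) was the other mRNA that did not pass at Day 4. Reads of *mt-Nd4l*, *mt-Co2*, *mt-Co3* and *mt-Atp6* were shared with other sequences, with a posterior SD from 28.0% to 474% of the count in at least 1 library, so these values are uncertain. Whether these differences followed from those of the nuclear genes was not tested.

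**Figure D5:**
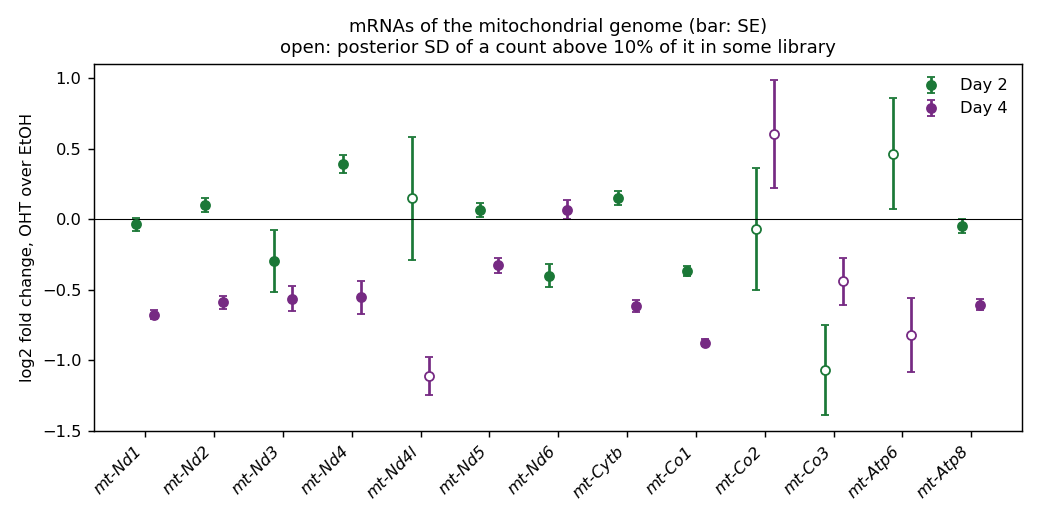
Log2 fold change of OHT over EtOH with its SE for the 13 mRNAs of the mitochondrial genome at Day 2 (green) and Day 4 (purple). Open points mark *mt-Nd4l*, *mt-Co2*, *mt-Co3* and *mt-Atp6*, whose counts carry a posterior SD above 10% in some library. At Day 4, 11 of the 13 lie below 0, from -0.33 for *mt-Nd5* to -1.11 for *mt-Nd4l*.

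A wider set of 82 nuclear genes of the same pathway, none of them on the bound list, was described by counts. Of the 80 above the minimum mean, 5 were higher and 6 lower at Day 2, and 14 were higher and 15 lower at Day 4, with medians of -0.06 and -0.01. These were 6.25% higher and 7.50% lower at Day 2, below the 9.17% and 10.6% over all genes tested, and 17.5% higher and 18.8% lower at Day 4, below the 23.5% and 21.7% over all genes. Among 17 mitochondrial aminoacyl-tRNA synthetase genes, 1 was higher and 1 lower at Day 2 (5.88% each), and 3 were higher (17.6%) and 2 lower (11.8%) at Day 4. *Lars2* moved from 0.40 (SE 0.14, DESeq2 adjusted p = 0.0337) to -0.40 (SE 0.13, adjusted p = 0.00998), *Mars2* was lower at Day 2 (-0.23, adjusted p = 0.0106) and *Sars2* higher at Day 4 (0.35, adjusted p = 1.07e-06). The calls of *Lars2* were lost in 6 of 15 alternative analyses at Day 2 and 5 of 15 at Day 4, and that of *Mars2* in 3 of 15. Of 18 genes for modification of mitochondrial RNA, 0 were higher and 3 lower (16.7%) at Day 2, led by *Trmt61b* (-0.44, adjusted p = 0.00697, lost in 5 of 15 alternative analyses), and 5 were higher (27.8%) and 4 lower (22.2%) at Day 4, from *Pus1* (-0.30, adjusted p = 3.78e-08) to the rRNA methyltransferase gene *Mrm1* (0.59, SE 0.09, adjusted p = 8.25e-11).

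Of 12 genes for mitochondrial ribosome assembly, 2 were lower (16.7%) at Day 2, led by the GTPase gene *Noa1* (-0.26, DESeq2 adjusted p = 0.00541, lost in 4 of 15 alternative analyses), and 2 were higher (16.7%) and 3 lower (25.0%) at Day 4, from *Rbfa* (-0.30, adjusted p = 1.7e-06) to *Ngrn* (0.29, adjusted p = 5.36e-06). The 12 other translation genes held 0 calls at Day 2 and 2 lower (16.7%) at Day 4, of which *Taco1*, the translational activator of *mt-Co1*, was the lower (-0.41, SE 0.09, adjusted p = 6.58e-05). Among 14 other genes for mitochondrial DNA maintenance, *Lig3* was the 1 higher (7.14%) at Day 2 (0.12, adjusted p = 0.0335) and the 1 lower (7.14%) at Day 4 (-0.20, adjusted p = 1.67e-06), and *Top3a* led the 3 higher (21.4%) at Day 4 (0.21, adjusted p = 0.000127). The Day 2 call of *Lig3* was lost in 8 of 15 alternative analyses and its Day 4 call in none. Of 9 regulators of mitochondrial biogenesis 7 were above the minimum mean, with 3 higher (42.9%) at Day 2, led by *Hcfc1* (0.32, SE 0.06, adjusted p = 3.06e-06), and 1 higher (14.3%) and 3 lower (42.9%) at Day 4. The higher one was *Gabpb2* (0.09, adjusted p = 0.0447), whose call was lost in 9 of 15 alternative analyses and without any 1 of the 6 libraries, and *Myc* was the lowest (-0.36, SE 0.07, adjusted p = 7.29e-06). *Hcfc1*, higher at Day 2, was among the 3 lower at Day 4 (-0.22, SE 0.04, DESeq2 adjusted p = 4.69e-06). Its calls on both days held in all 15 alternative analyses.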

How the data were processed

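RNA-seq of 12 mESC libraries was analysed, with groups taken from the sample titles. Stranded libraries were made from total RNA. Reads were aligned by the authors with STAR (2.6.0c) to GRCm38.p6 and assigned to GENCODE genes with RSEM. The deposited expected counts are RSEM's estimates of the reads of a gene, which share out reads that fit several genes, and the deposited TPM values come from the same step. TPM was used for levels only. The deposited tables of the authors' own DESeq2 comparisons hold log2 fold changes and p-values, of which none were used, and served to match symbols.

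Expected counts were rounded and tested with DESeq2 (1.42.0, R 4.3.3) over all genes: Wald test, median-of-ratios size factors, default independent filtering, unshrunken log2 fold changes, Benjamini-Hochberg adjustment. A call needed a mean normalised count above 100 and an adjusted p below 0.05. OHT was compared with EtOH within each day, the days by an interaction over 12 libraries, and Day 4 with Day 2 in EtOH. SDs are over 3 libraries. Intervals (95%) cover the model's error, and reads amplified by PCR are not independent molecules. Libraries held 35017667 to 41409992 expected counts. Mean normalised counts at Day 4 ran from 413 for *Polg2* to 10979 for *Ptcd3*, so counting error weighed more, relative to the count, on the lower genes. Alternatives were edgeR (4.0.16), TMM factors, total counts, effective lengths as offsets, removal of a loess trend (span 0.3) on gene length, no minimum mean, the replicate number as a block, 1 fit of all libraries, and each library left out. Models were tested on simulated data.

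All 37 genes were accounted for by role. Values in every library were given for genes on the bound list and, each day, the 4 called genes furthest in each direction. Group values were given for genes with opposite signs in the interaction and for *Polrmt*, *Lrpprc*, *Polg*, *Tufm*, *Nrf1* and *Tfam*. For each list of the wider set, at most the outermost called genes were named. The genes, lists and motif were chosen with earlier results of these data known. The list of 13 mitochondrial mRNAs is complete. Coordinates are GENCODE vM21 on GRCm38. Promoters are from RefSeq (GRCm38.p6). Binding sites served only to mark genes, and their values were not used.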

Additional observations from a re-analysis of the deposited data

Results flagged for a closer look

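For 12 of the 37 genes (32.4%) the difference between OHT and EtOH was itself different between the days (DESeq2 interaction, adjusted p below 0.05). This was near the share over all genes tested, 32.3% of 11616. Given as the log2 fold change at Day 4 minus that at Day 2, it was positive for *Hsd17b10* (0.312), *Pnpt1* (0.280), *Trmt10c* (0.241), *Fastkd2* (0.220), *Grsf1* (0.220), *Gabpa* (0.171) and *Mtif2* (0.163). It was negative for *Ptcd1* (-0.269), *Polrmt* (-0.245), *Twnk* (-0.214), *Lrpprc* (-0.208) and *Tbrg4* (-0.156). The calls of *Mtif2*, *Twnk*, *Gabpa*, *Polrmt*, *Ptcd1* and *Tbrg4* were lost in 15, 13, 10, 8, 8 and 5 of 20 alternative analyses, and those of the other 6 in none. *Ptcd2*, at -0.21 without a call, was called in 5 of the 20.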

How the results depend on the processing

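*Ptcd2*, *Mterf3*, *Lrpprc* and *Polg* stayed lower and called on both days in all 15 alternatives. Of the 37 genes, 6 were called at Day 2 and 12 when all 12 libraries were in 1 fit, and edgeR called 9. With each library left out, the count ran from 5 to 7 at Day 2 (main 6), from 15 to 20 at Day 4 (main 22), from 6 to 11 for the difference between the days (main 12) and from 11 to 15 between the days in EtOH (main 15). For the difference between the days it was 6 without Day 2 OHT replicate 3, 7 without Day 4 EtOH replicate 2, 7 without Day 4 EtOH replicate 3 and 6 without Day 4 OHT replicate 2. Day 4 calls of *Tefm*, *Fastkd1*, *Mtpap*, *Supv3l1* and *Hsd17b10* were each lost without 5 of the 6 libraries, and that of *Tsfm* without any of them. With effective lengths as offsets 19 genes were called at Day 4. Of the 7 transcription genes 4 were called, with *Polrmt* (-0.15, DESeq2 adjusted p = 0.13) and *Tfb2m* (-0.15, adjusted p = 0.0842) among those lost. RNA processing then held 5 lower and 5 higher, and translation 3 lower. Values near 0 changed sign for *Ptcd3* at Day 2 (-0.0046 with effective lengths) and, for the difference between the days, with total counts for *Polg* (-0.0165) and *Ptcd3* (-0.0123) and with the length trend removed for *Ptcd3* (-0.0168, and -0.0168 with the replicate block as well). Of the scalings, total counts moved the median of all genes furthest, by -0.0447 for the difference between the days. The replicate numbers did not pair the samples (correlations from -0.03 to 0.11 at Day 2 and -0.25 to 0.16 at Day 4). A replicate block left 5 calls at Day 2, 15 at Day 4, 9 for the difference between the days and 13 in EtOH. Tuning the filter to 0.05, an alternative chosen after seeing the data, gave 7, 22, 12 and 15. The causes were not tested.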
